A study of Mus musculus with 2 samples.

Results

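The 42 genes described here encode the proteins that carry a signal from the T cell receptor (TCR) into the cell, together with the proteins that restrain it. They were taken by symbol from the gene tables built on the GENCODE M21 annotation, and all 42 were found among the 55536 annotated genes of those tables. By role they fall into 6 receptor-proximal kinases, 13 adaptors and scaffolds, 9 effector enzymes and 14 brakes. Bcl10 was counted with the effector enzymes, although it is an adaptor and not an enzyme. The list is by function, and no threshold on measured values was used to pick its genes.

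The material was polyA-selected RNA of primary regulatory T (Treg) cells, a CD4 lineage that holds back immune responses, from a male mouse of 9 weeks. It is given as 1 biosample with 2 technical libraries, so there was 1 group, and no treatment, genotype or other cell type to compare it with. The mouse strain, the sorting markers and the tissue of origin were each not given in the sources used here. Except for the model's own SDs of transcript counts, every SD below is over these 2 libraries (n = 2) and measures technical spread between them. Every p-value compares the same libraries. None of these values measures variation between mice.

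When a TCR binds its ligand, the kinase Lck phosphorylates the receptor's tails, to which Zap70 then docks. Zap70 phosphorylates the membrane adaptor Lat and the cytosolic adaptor Lcp2, on which a complex with phospholipase C gamma and Vav assembles, opening the calcium, Ras and NF-kappaB branches. Brakes act at each step: Csk and phosphatases turn Src-family kinases off, ubiquitin ligases and the Ubash3 proteins limit activated kinases, and diacylglycerol kinases remove the lipid messenger that phospholipase C makes. Treg cells depend on TCR signals for their suppressive activity.

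The gene tables held 34697128 estimated counts for library 1 and 32049199 for library 2 over annotated genes. Levels are in TPM, a length-corrected unit of transcript abundance that allows genes to be compared, and a paired value is always in the order library 1, library 2. A gene counts as detected where neither library has it below 1 TPM. All 6 Treg cell markers and all 6 T cell markers were detected, Foxp3 at 110 ± 1.68 TPM. Of the markers of other cells, the 8 B cell genes summed to 52.0 and 48.2 TPM in libraries 1 and 2, the 10 myeloid genes to 34.6 and 29.6 TPM, the 5 NK cell genes to 5.09 and 2.95 TPM and the 2 CD8 genes to 25.8 and 26.1 TPM. Most of the CD8 sum was Cd8b1, at 24.1 and 23.3 TPM, while Cd8a was at 1.69 and 2.84 TPM. Pax5 was at 0.105 TPM on average and Ncr1 at 0 in both libraries, whereas Cd79b reached 30.8 ± 3.06 TPM. In such a bulk sample, fewer cells with a transcript and less of it per cell cannot be told apart.

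All 42 genes were detected, against 48.0% of 22028 protein-coding genes (10583 genes). Their median level was 161 and 157 TPM, where detected protein-coding genes had a median of 31.1 TPM. On the log2(TPM + 1) scale the median of the 42 genes was 7.348 and that of detected protein-coding genes 5.003, from the mean of both libraries. Of the 42 genes, 25 averaged 100 TPM or more, a level that 17.4% of detected protein-coding genes reached. Only Vav3, Vav2, Tec, Sos1 and Syk lay below the median of detected protein-coding genes, leaving 37 above it. The levels ran from 1234 ± 53.1 TPM for Lck to 2.09 ± 0.537 TPM for Syk.

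The libraries differed little for most of these genes. The coefficient of variation between them had a median of 4.59% and ran from 0.132% for Pag1 to 25.7% for Syk, where detected protein-coding genes had a median of 6.92%. In the order of levels, 20 of the 41 neighbouring genes had library values that did not overlap, and 21 did. Thus Lck stood clear of Lat, the next gene, whereas Lat and Dgka overlapped and their order was not resolved.

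**Figure D1:**
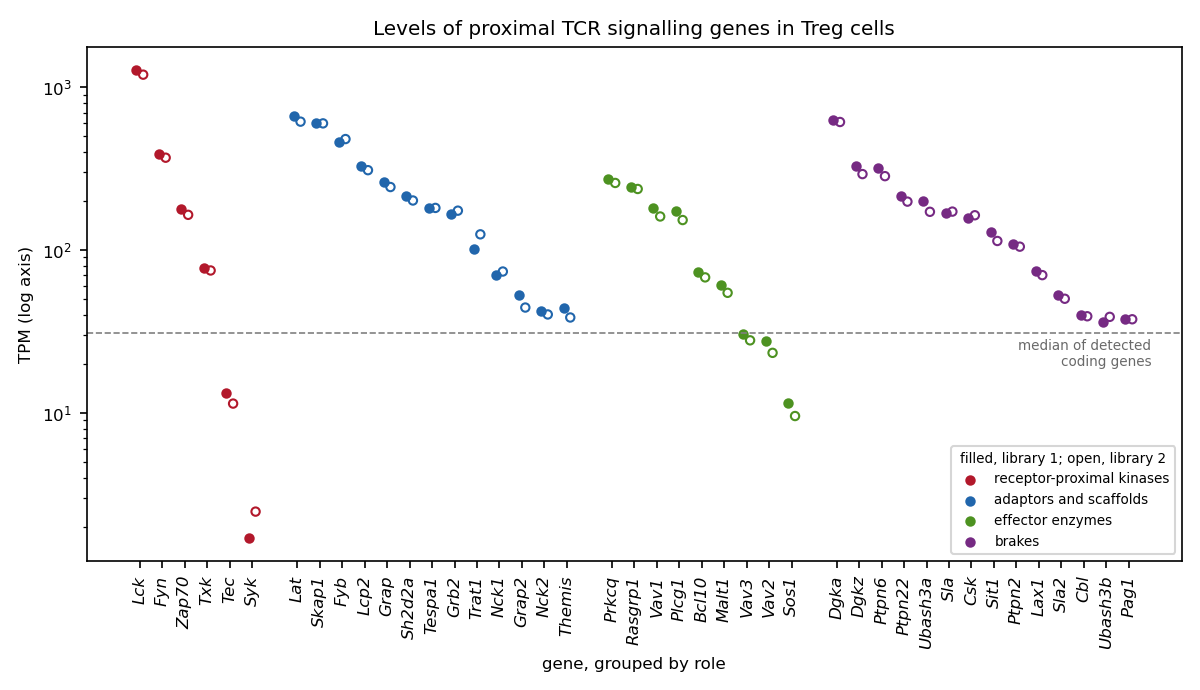
Level of each gene in TPM on a log axis, grouped by role and ordered by mean; filled points are library 1 and open points library 2, and the dashed line is the median of detected protein-coding genes (31.1 TPM). All 14 brakes lie above the line, and Syk, at 1.71 and 2.47 TPM, lies lowest.

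The receptor-proximal kinases spanned the whole range of levels, with a median of 124 TPM. Lck, the Src-family kinase held at the co-receptors CD4 and CD8 (chr4:129548344-129573641, minus strand, GRCm38), was at 1271 and 1196 TPM. Fyn, the other Src-family kinase of T cells (chr10:39368855-39565381, plus strand), was at 389 and 369 TPM. Lck was thus 3.26-fold and 3.24-fold above Fyn in libraries 1 and 2, and the difference far exceeded the spread of either gene.

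Zap70, the kinase that docks on the phosphorylated receptor (chr1:36761798-36782818, plus strand), was at 178 and 165 TPM. Its only close relative, Syk, which does the same work at the B cell receptor and in early thymocytes (chr13:52583173-52648792, plus strand), was at 1.71 and 2.47 TPM. These levels rested on 164 and 243 estimated counts, against 7336 and 6748 for Zap70. Zap70 was 104-fold above Syk in library 1 and 66.6-fold in library 2. Syk was the lowest of the 42 genes, at percentile 4.8 of detected protein-coding genes, and the B cell marker Cd79a was also present, at 8.56 ± 0.304 TPM. The part of such cells in the Syk level was not tested.

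Of the Tec-family kinases, which activate phospholipase C gamma, Txk was at 77.3 and 74.9 TPM. Tec was at 13.2 and 11.4 TPM, so that Txk was 5.88-fold and 6.58-fold above it. Txk and Tec are neighbours on chromosome 5, on the same strand, 2938 bases apart and with no annotated gene between them. Even so, their levels differed far beyond the spread between libraries.

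By TPM over all transcripts, all 13 adaptors and scaffolds exceeded the median of detected protein-coding genes, and their own median was 182 TPM. Protein-coding transcripts alone summed to 24.76 and 23.83 TPM for Trat1, and to 37.52 and 29.93 TPM for Themis. Lat, the transmembrane scaffold that Zap70 phosphorylates (chr7:126363824-126369570, minus strand), was at 669 and 615 TPM. Lcp2, the cytosolic scaffold that joins it (chr11:34046920-34092295, plus strand), was at 327 and 310 TPM. Grap2 (GADS), the adaptor that links Lat to Lcp2, was much lower at 53.0 and 44.3 TPM. A second gene, Gm49553, is annotated on the same strand within the span of Grap2 and held counts equal to 21.3% and 18.3% of those of Grap2, so the division of reads between them bears on this level.

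Skap1 and Fyb (ADAP), which together couple the receptor to integrin adhesion, were the next highest adaptors. Skap1 was at 606 and 600.3 TPM, and Fyb at 462 and 481 TPM. Both stood above Lcp2, with which Fyb associates, in both libraries.

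Members of the Grb2 family bring signalling partners, among them Ras activators, to Lat, and the highest of them here was Grap. It was at 261 and 244 TPM. Grb2 was at 166 and 175 TPM, so that Grap was 1.58-fold and 1.40-fold above it. Grb2 was in turn 3.12-fold and 3.94-fold above Grap2 by TPM. A second gene table, built on GENCODE M4, holds whole-number counts. By M4 counts per kilobase Grb2 over Grap2 was 0.932 and 1.14, on either side of equality, whereas Grap stayed above Grb2. Here and below, the length that divides an M4 count is the gene's mean transcript length from M21. This measure is therefore not independent of M21. The M4 table also kept an uneven share of the M21 counts across genes, as given further below.

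Among the other adaptors, Sh2d2a (TSAd), which binds Lck, was at 214 and 202 TPM in libraries 1 and 2. Tespa1 and Themis are both needed for TCR signals in developing thymocytes, and they differed here. Tespa1 was at 182.0 and 181.5 TPM, and Themis at 43.9 and 38.5 TPM. The gap was smaller by protein-coding transcripts alone, with Tespa1 at 73.65 and 73.00 TPM and Themis at 37.52 and 29.93 TPM. Trat1, which stabilises the receptor complex at the surface, was at 102 and 125 TPM, the second largest relative spread of the 42 genes with a coefficient of variation of 14.2%. Nck1 and Nck2 link the receptor to the actin skeleton. Nck1, at 70.02 and 73.8 TPM, was 1.66-fold and 1.84-fold above Nck2, at 42.3 and 40.2 TPM, but estimated counts with no correction for length put the pair at ratios of 0.937 and 1.03.

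The effector enzymes, with Bcl10 counted among them, were lower as a group. Their median was 70.7 TPM, which is the level of Bcl10, and 4 of 9 averaged 100 TPM or more. Prkcq, the protein kinase C that leads to NF-kappaB in T cells, was at 273 and 258 TPM. Rasgrp1, the diacylglycerol-bound activator of Ras, was at 243 and 237 TPM. Sos1, the Ras activator that Grb2 recruits, was at 11.5 and 9.55 TPM, the lowest of the group. Its relative Sos2, outside the 42 genes, was similarly low at 12.7 ± 1.90 TPM, and Rasgrp2, a Rasgrp1 relative, reached 209 ± 7.57 TPM.

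Plcg1, the phospholipase C gamma of T cells, which makes the messengers for calcium and diacylglycerol, was at 175 and 153 TPM. The form used by B cells, Plcg2, averaged 0.425 TPM, from 62 counts in library 1 and 14 in library 2. Vav1, the exchange factor that activates Rac, was at 182 and 161 TPM. Its relatives were several-fold lower, Vav2 by 6.58-fold and 6.89-fold and Vav3 by 5.998-fold and 5.768-fold in libraries 1 and 2. Bcl10 and Malt1 act together in turning on NF-kappaB. Bcl10 was at 73.5 and 67.9 TPM and Malt1 at 61.2 and 54.6 TPM, so these partners lay close together over all transcripts. By protein-coding transcripts alone they lay further apart, with Bcl10 at 70.19 and 64.20 TPM and Malt1 at 28.52 and 22.93 TPM.

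By TPM over all transcripts, all 14 brakes exceeded the median of detected protein-coding genes. For Pag1 this rested on its other transcript classes, as its protein-coding transcripts summed to 11.65 and 10.97 TPM. Of the 14 brakes, 9 averaged 100 TPM or more, and their median was 141 TPM, beside 167 TPM for the other 28 genes. Dgka, a diacylglycerol kinase known for its part in T cell unresponsiveness (chr10:128720134-128744855, minus strand), led them at 629 and 612 TPM. Its relative Dgkz was at 329 and 293 TPM. Dgka was 1.91-fold and 2.09-fold above Dgkz by TPM, but the M4 counts per kilobase put them at 0.972 and 1.01. In the M4 table Dgka kept 13.2% and 14.1% of its M21 count and Dgkz 26.0% and 29.0%, so their order depended on the annotation and counting used.

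Next in role were phosphatases that act on Lck, Fyn and Zap70, and the partners of Csk. Ptpn6, which docks on inhibitory receptors, was at 322 and 285 TPM. Ptpn22, which works with Csk on Src-family kinases, was at 214 and 198 TPM. Ptpn2, which also acts on cytokine signals, was at 109 and 105 TPM. Csk, the kinase that phosphorylates the inhibitory tail of Lck and Fyn, was at 157 and 164 TPM. Pag1, a membrane adaptor that anchors Csk near Lck, was at 37.5 and 37.6 TPM, at the low end of the brakes, where its values overlapped those of Ubash3b.

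Other inhibitory membrane adaptors were intermediate. Sit1 was at 129 and 114 TPM, and Lax1 at 74.8 and 70.1 TPM. Lime1, a membrane adaptor outside the 42 genes and not counted here as a brake, was at 215 ± 12.2 TPM. Among the regulators of receptor and kinase breakdown, the ubiquitin ligase Cbl was at 39.8 and 39.2 TPM, while Cblb, its relative known as a gatekeeper of T cell activation and also outside the 42 genes, was at 80.5 ± 5.89 TPM.

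Sla, which with Cbl lowers receptor levels, was at 168 and 172 TPM. Its relative Sla2 was at 52.7 and 50.2 TPM, 3.19-fold and 3.43-fold lower. The opposite-strand coding gene Rab5if overlaps Sla2 and held counts equal to 72.8% and 80.5% of those of Sla2. The strandedness of the libraries was not given in the sources used here, so reads from the shared stretch cannot be assigned with certainty. Of all 42 genes, 29 were overlapped by some annotated gene, and these counts reached 10% of the gene's own count only for Sla2 and Grap2.

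Ubash3a, a T cell protein of the Ubash3 family that dampens TCR signals, was at 200 and 172 TPM. Ubash3b, the family's more active phosphatase, was at 36.4 and 38.9 TPM. The ratio was 5.48 and 4.42 over all transcripts, but 1.58 and 1.38 when only protein-coding transcripts were summed. Here the transcript class changed the size of the difference more than 3-fold in each library while leaving its direction.

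Taking the 11 pairs of related genes together, 8 differed at least 2-fold in both libraries by TPM. The exceptions were Grb2 and Grap, Nck1 and Nck2, and Dgka and Dgkz. All 11 ratios had the same direction in both libraries. The number of pairs at least 2-fold apart was 6 by M4 counts per kilobase, since Lck and Fyn (1.63 and 1.66), Grb2 and Grap2, and Sla and Sla2 (1.68 and 1.82) fell inside 2-fold and Nck1 and Nck2 (2.62 and 3.20) moved outside it.

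**Figure D2:**
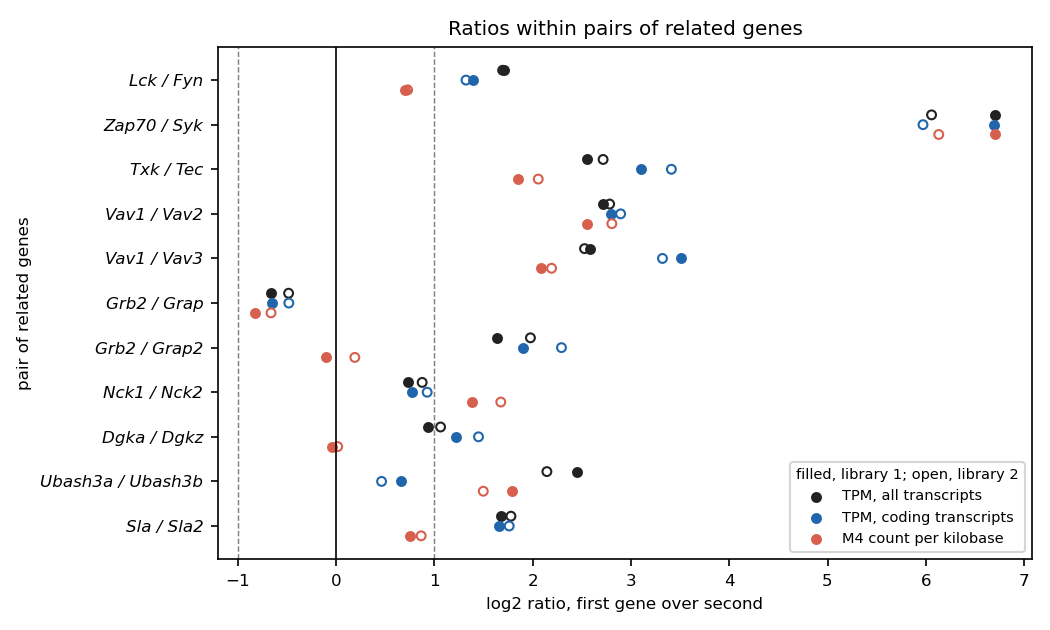
Log2 ratio of the first over the second gene in each pair of relatives. Ratios are by TPM over all transcripts, by TPM over protein-coding transcripts and by M4 count per kilobase of M21 transcript length. Filled points are library 1, open points library 2, and dashed lines mark 2-fold. Zap70 over Syk lies farthest out, and Grb2 over Grap is the only ratio below 0 in all 3 measures and both libraries.

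The pathway's other genes and the relatives used in other blood cells were set beside these 42. Of 40 other TCR pathway genes 39 were detected, with a median of 118 TPM. The highest were Cd3e at 1098 ± 27.1 TPM, Ptprc (CD45, which activates Lck) at 1079 ± 40.3 TPM and Cd3g at 1009 ± 16.2 TPM. The lowest were Gab2, with 7 counts in library 1 and 0 in library 2, Ptpn12 at 9.72 ± 1.78 TPM and Sos2.

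Of 21 relatives of the 42 genes 8 were detected, and their median was 1.04 TPM. The highest were Rasgrp2, Prkcb at 102 ± 0.0495 TPM and Prkcd at 85.2 ± 1.16 TPM. The Src-family kinases of other blood cells were low, with Lyn at 3.32 ± 0.233 TPM, Fgr at 3.17 ± 0.361 TPM and Blk at 0.390 ± 0.184 TPM. Btk, the Tec-family kinase of B cells, was at 1.04 ± 0.0636 TPM. The lowest were Bmx and Clnk, with 0 counts in both libraries, and Sh2d1b1, with 2 counts and 0.

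The same tables divide each gene among its annotated transcripts, 265 for the 42 genes. The leading transcript by TPM was protein-coding for 37 genes. For the other 5 it was of another class: a retained intron for Pag1, Sos1 and Tespa1, a transcript marked for nonsense-mediated decay for Trat1, and a processed transcript for Ubash3a. By estimated counts, which short transcripts weigh less in, 41 of 42 leading transcripts were protein-coding and only Ubash3a was not. The protein-coding share of a gene had a median of 83.7% by TPM (21.7% to 100.0%) and 92.0% by estimated count. It fell under 50% for 7 genes by TPM and for 1 by estimated count.

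Trat1 showed how far the units can part. Its transcript Trat1-201, of 647 bases and marked for decay, took 75.7% and 80.9% of the gene's TPM in libraries 1 and 2, but 28.8% and 35.5% of its estimated count. The coding transcript Trat1-202 is 4665 bases long and took 71.2% and 64.6% of the count. For Ubash3a both units gave the same leader, Ubash3a-204, at 50.80% and 49.99% of TPM and 52.0% and 49.3% of counts.

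**Figure D3:**
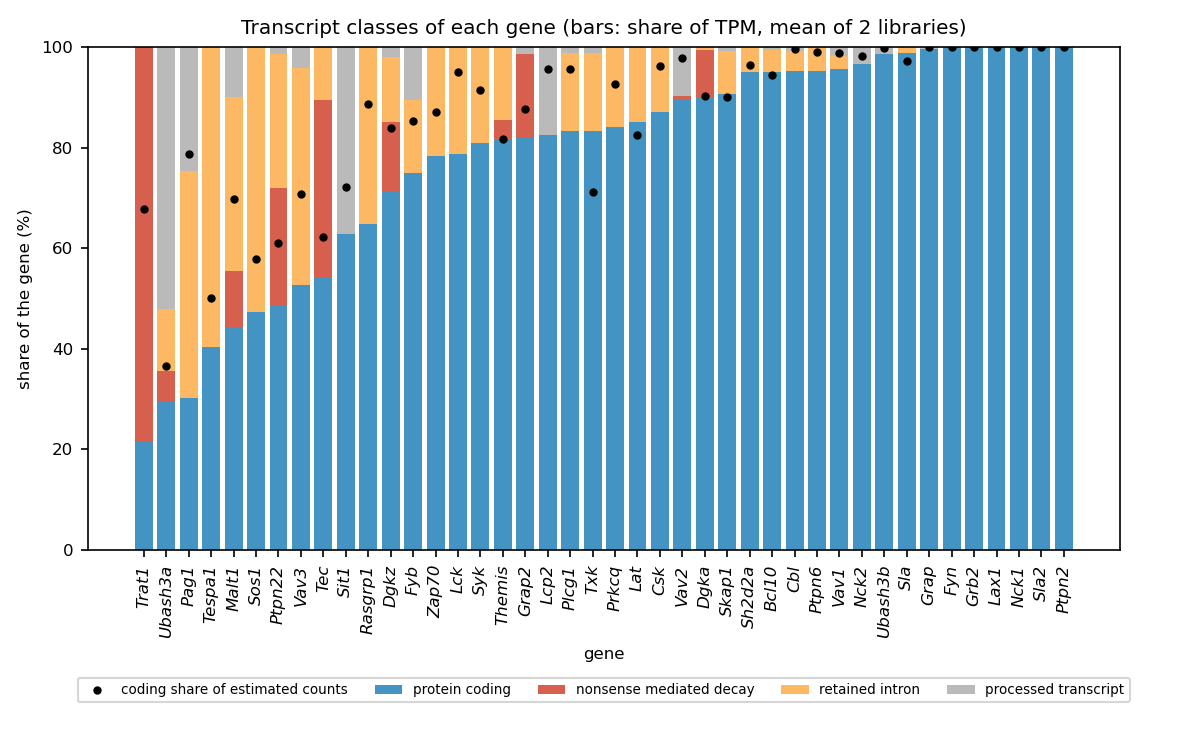
Share of each gene's TPM in protein-coding, decay, retained-intron and processed transcripts (stacked bars, mean of 2 libraries), ordered by the protein-coding share; black points give the protein-coding share of estimated counts. The share runs from 21.7% for Trat1 to 100.0%, and for Pag1, Trat1 and Tespa1 the point lies above the bar's coding part.

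Fyn exists in forms that differ by a pair of mutually exclusive exons at the start of the kinase domain: FynT, the form of T cells, and FynB, the form of brain. The exons are shown because the reads that tell the forms apart come from them. Both are given 5′ to 3′ on the plus strand of chromosome 10, from the GENCODE M21 transcripts on GRCm38. The exon of Fyn-201 lies at chr10:39529919-39530074 and has 156 bases, and the exon of Fyn-202 lies at chr10:39529437-39529601 and has 165 bases.
Fyn-201 exon: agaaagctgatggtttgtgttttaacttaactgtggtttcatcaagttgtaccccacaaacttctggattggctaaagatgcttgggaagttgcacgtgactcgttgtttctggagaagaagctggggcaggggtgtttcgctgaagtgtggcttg
Fyn-202 exon: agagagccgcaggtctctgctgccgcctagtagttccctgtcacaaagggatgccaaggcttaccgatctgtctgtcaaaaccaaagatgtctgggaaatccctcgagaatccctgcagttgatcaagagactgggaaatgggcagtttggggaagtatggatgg

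In a global alignment 95 of 150 aligned bases of the exons were identical (63.3%). Fyn-201 encodes 534 amino acids and Fyn-202 encodes 537, the downstream exon being that of FynT. Of the Fyn transcripts that reach this point, those with the exon of Fyn-201 took 85.8% and 83.8% of TPM (84.8% ± 1.44). Fyn-202 took 3.38% and 4.09%. The remaining 10.8% and 12.1% went to Fyn-206, which has neither exon. The T cell exon therefore led by a wide margin in both libraries, and by estimated counts its share was 88.7% and 86.9%.

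Among single Fyn transcripts, Fyn-201 took 40.4% and 37.1% of the gene's TPM, Fyn-204 34.0% and 37.8%, and Fyn-206 10.6% and 11.7%. Fyn-201 and Fyn-204 encode proteins of the same length, and which of them led differed between the libraries. The authors' model gave its own SD for the count of each transcript: 1.89% and 2.14% of the count for Fyn-201, against 11.5% and 10.8% for Fyn-202, so the minor form was less well fixed.

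Lck is transcribed from a proximal start, used mainly in thymocytes, and a distal start, used in thymocytes and mature T cells. The starts lie 15269 bases apart in the M21 annotation. Lck-202 begins with the distal first exon (chr4:129573515-129573641), and Lck-208 with the proximal one (chr4:129558288-129558372), at which Lck-201 and Lck-206 were grouped as well. Of the TPM that could be assigned to either start, the distal one took 55.1% in library 1 and 58.8% in library 2 (57.0% ± 2.63), and the proximal one 44.9% and 41.2%. The distal start led in both libraries, yet the proximal start was far from absent.

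By estimated counts the distal share was 55.4% and 59.2%. The model's SD was 3.53% and 4.16% of the count for Lck-202, and 4.75% and 6.64% for Lck-208. Apart from a few bases at their far ends, Lck-202 and Lck-208 differ only in the first exon, so the division rests on reads that touch it. Single Lck transcripts above 10% of TPM were Lck-202 at 44.3% and 45.5%, Lck-208 at 32.6% and 28.8%, and Lck-207, a retained-intron transcript of 450 bases, at 19.2% and 22.4%. Lck-207 took only 4.46% and 5.36% of the gene's estimated count.

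Since transcripts from both starts were measured, the 250 bases before each are printed, 5′ to 3′ on the minus strand, from RefSeq promoters on GRCm38.p6. The distal window is chr4:129573642-129573891 and the proximal window is chr4:129558373-129558622, within which the minor transcript Lck-201 begins. Capitals mark the letters TGTGGT (a RUNX motif), GGAAGT (an ETS motif) and CAGGTG (an E-box), searched on both strands.
Lck distal promoter: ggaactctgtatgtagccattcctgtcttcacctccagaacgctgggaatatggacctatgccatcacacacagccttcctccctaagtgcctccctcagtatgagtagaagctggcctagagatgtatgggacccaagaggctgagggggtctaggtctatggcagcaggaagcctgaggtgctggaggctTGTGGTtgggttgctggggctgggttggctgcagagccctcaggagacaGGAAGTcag
Lck proximal promoter: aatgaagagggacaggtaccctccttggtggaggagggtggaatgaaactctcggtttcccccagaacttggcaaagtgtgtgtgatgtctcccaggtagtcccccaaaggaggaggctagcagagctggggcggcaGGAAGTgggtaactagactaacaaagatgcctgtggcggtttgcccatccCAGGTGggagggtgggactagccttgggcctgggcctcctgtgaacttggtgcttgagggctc

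The distal window held TGTGGT 58 bases and GGAAGT 9 bases before the start, and the proximal window GGAAGT 113 bases and CAGGTG 63 bases before it. Neither held the letters TATAAA. Over all 32851 RefSeq promoter windows of this length, TGTGGT stood in 14.1%, GGAAGT in 19.7%, CAGGTG in 17.2% and TATAAA in 12.4%. Such matches describe letters and do not show binding.

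Several brakes also had alternative forms with stable shares. Ptpn22 has an exon with 2 acceptor sites. The longer form has 116 bases, at chr3:103903370-103903485 on the plus strand, and the shorter one leaves out its first 8 bases, a number that shifts the reading frame. Capitals mark those 8 bases in the Ptpn22-201 junction, which is shown with the Ptpn22-204 junction with 30 bases on each side.
Ptpn22-201 junction: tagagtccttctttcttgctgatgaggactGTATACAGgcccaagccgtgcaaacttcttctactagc
Ptpn22-204 junction: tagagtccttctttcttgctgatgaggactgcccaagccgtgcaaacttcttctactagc

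Of the Ptpn22 TPM that reached this exon, the shorter form took 33.7% in library 1 and 33.0% in library 2 (33.4% ± 0.490). Ptpn22-204, which carries it and is annotated as a target of nonsense-mediated decay, took 23.2% of the gene's TPM in each library. The coding transcript Ptpn22-201 took 47.8% and 49.6%. The model's SD for the counts of Ptpn22-204 was 9.31% and 8.54%. By estimated count Ptpn22-201, its only annotated coding transcript, took 60.5% and 61.5%, so whether coding transcripts held most of Ptpn22 depended on the unit.

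Ptpn6 is transcribed from a pair of promoters, one of which is known for use in blood cells. Transcripts beginning with the first exon of Ptpn6-202 took 75.1% and 78.8% of assignable TPM in libraries 1 and 2, and those beginning with the first exon of Ptpn6-203 took 24.9% and 21.2%. The downstream start therefore led in both libraries. Ptpn2 has forms with different last exons, which place the protein in the nucleus or at the endoplasmic reticulum. The last exon of Ptpn2-201, a transcript encoding 382 amino acids, took 95.6% and 96.5%, and that of Ptpn2-203, encoding 406, took 4.43% and 3.50%.

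For Ubash3a, the first exon of the processed transcript Ubash3a-204 took 60.4% and 57.2% of assignable TPM, and the first exon of the coding transcript Ubash3a-201 took 39.6% and 42.8%. Of the adaptors and effectors, Fyb was led by Fyb-201 at 50.5% and 51.7% of TPM, with the short coding Fyb-209 at 16.4% and 18.2% and the processed Fyb-206 at 11.3% and 8.93%. Malt1 was led by the coding Malt1-201 at 44.3% ± 3.28, followed by the retained-intron Malt1-206 at 16.8% ± 0.328 and the processed Malt1-210 at 7.07% and 12.7%.

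Tec was the clearest case in which transcripts were not resolved. Tec-203 took 48.7% and 15.4% of its TPM, and Tec-202 took 7.75% and 33.2%. The model's SD was 19.8% and 66.8% of the count for Tec-203, and 84.6% and 24.8% for Tec-202. No order of Tec transcripts can be read from these libraries.

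**Figure D4:**
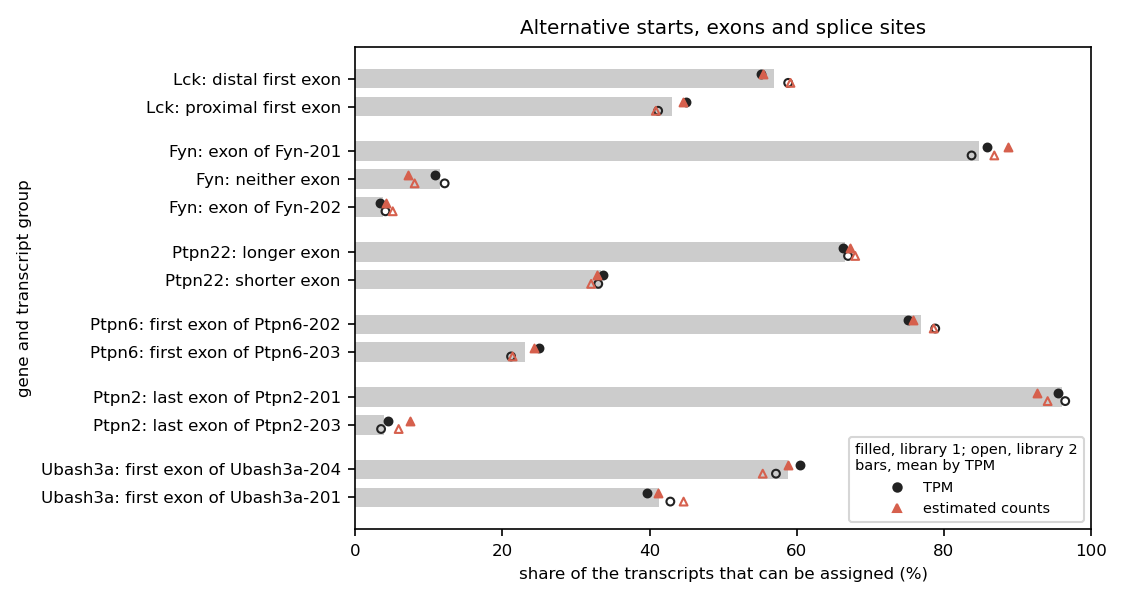
Share of assignable transcripts for each alternative start, exon or splice site, with bars for the mean by TPM, circles for TPM and triangles for estimated counts; filled symbols are library 1 and open symbols library 2. The exon of Fyn-201 stands near 85.8% and 83.8%, and the distal Lck start lies above the proximal one in both libraries and both units.

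The libraries were compared to learn which levels above carry a technical difference. In an exact binomial test of each gene's estimated counts, scaled by the TMM method and adjusted by Benjamini-Hochberg over 18746 genes, 8 of the 42 genes were called higher in library 2, 13 higher in library 1, and 21 were not called. Over all genes tested 36.5% were called, of which 17.2 percentage points were higher in library 2 and 19.2 in library 1. This test covers counting error only and compares these libraries. The differences were small: log2 ratios of library 2 over library 1 ran from -0.26 for Themis to 0.68 for Syk, with a median of -0.01, where all genes had 0.00. When edgeR's exact test added the common spread of all genes between libraries, a coefficient of variation of 15.1%, it called 0 of the 42 genes (1 at an unadjusted p under 0.05). Over all genes it called 2.98%, with 1.33% higher in library 2 and 1.64% in library 1. The common spread was estimated from these same 2 libraries treated as 1 group, so it contains the differences under test. The edgeR result therefore cannot judge the binomial calls.

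Syk had the largest ratio of the 42 genes. Its adjusted p was 2.52e-05 in the exact binomial test and 0.477 in edgeR's exact test, both with Benjamini-Hochberg adjustment. The M4 counts, 65 and 96, gave a log2 ratio of 0.65. Other genes called higher in library 2 were Csk (0.18), Trat1 (0.16), Fyb (0.15), Nck1 (0.13), Sla (0.11), Skap1 (0.06) and Dgka (0.03), on the log2 scale.

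By role, 6 of 9 effector enzymes were called higher in library 1 and 0 higher in library 2, where 19.2% and 17.2% of all genes were. They were Sos1 (-0.21), Vav2 (-0.20), Malt1 (-0.13), Vav1 (-0.11), Plcg1 (-0.11) and Rasgrp1 (-0.07). These shares too compare genes of unlike counts. Of the 6 kinases 1 was called in each direction, Syk higher in library 2 and Lck in library 1. Of the 14 brakes 3 were called in each direction, and of the 13 adaptors 4 were higher in library 2 and 3 in library 1. The mean transcript length moved with these calls, with a median of 1840 bases for the 8 genes higher in library 2 and 3078 bases for the 13 higher in library 1. Across the 42 genes Spearman's rho between length and log2 ratio was -0.26, and across 13272 protein-coding genes tested it was -0.16, as descriptions over genes that share both libraries. The part of length in the calls was not tested.

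Counts in the M4 table were lower throughout. They amounted to 7.19% of the M21 estimated count for Lck in library 1 (3335 against 46383) and at most to 63.3%, for Sos1, with medians over the 42 genes of 29.2% and 31.8% in libraries 1 and 2. The order of counts was largely kept, with Spearman's rho of 0.874 and 0.878 over the 42 genes. In the exact binomial test on M4 counts with Benjamini-Hochberg adjustment, 7 of the 42 genes were called. Over 12147 genes 14.4% were called, with 4.62% higher in library 2 and 9.76% in library 1. Dgka, Fyb and Syk were higher in library 2 and Malt1, Sos1, Themis and Vav2 higher in library 1, each in the direction of the M21 call. All 8 genes higher in library 2 kept their sign, whereas 5 of the 13 higher in library 1 (Lat, Lck, Ptpn6, Rasgrp1 and Vav1) changed it. Genes not called changed sign as well. Fyn went from -0.029 by M21 to 0.073 by M4 and Zap70 from -0.006 to 0.036, while Sla2 went from 0.011 to -0.014. A kept or changed sign of such small ratios therefore does not show which calls hold.

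**Figure D5:**
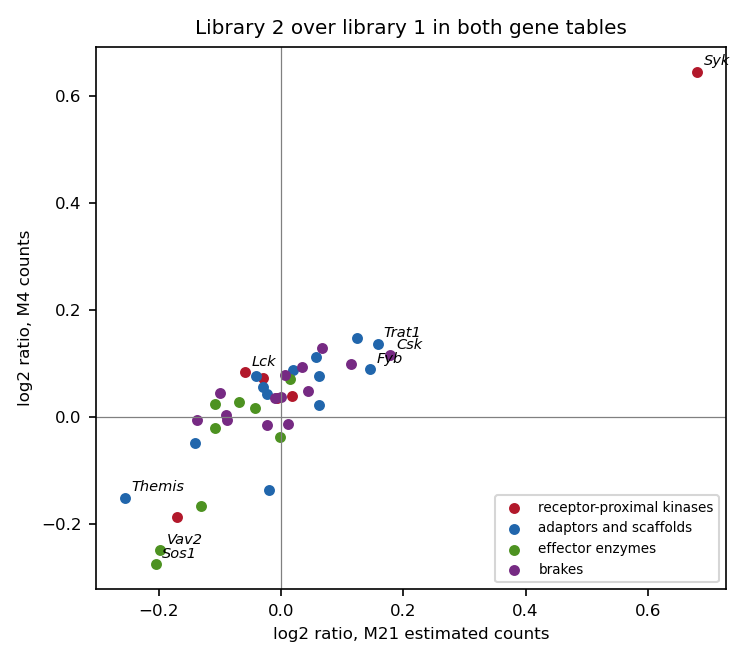
Log2 ratio of library 2 over library 1 for each of the 42 genes from M21 estimated counts (horizontal) and from M4 counts (vertical), coloured by role. Syk lies apart at 0.68 and 0.65, and Lck falls in the upper left quadrant, where the tables differ in sign.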

How the data were processed

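Values came from 2 technical libraries of 1 biosample. Per the file headers, the deposited gene and transcript tables hold estimated counts, TPM, FPKM, the percent of a gene's TPM taken by each transcript, and a model SD of each count. Per the deposited file lists, they rest on GENCODE M21 and mm10. A further deposited table holds whole-number read counts on GENCODE M4. The aligner, the quantifier, the counter and the read length were each not given in the sources used here.

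The members and lists were chosen with earlier results of these data known. Values are printed for all 42 genes or summarised by range; of other lists, the 3 highest and 3 lowest genes and members of the paired families are named, plus a few marker genes, Lime1, Cblb and Plcg2, chosen after their values were seen. Some genes that this rule names are not reported here. Transcript shares were computed from transcript TPM and estimated counts, leaving transcripts that lack the region out of assignable shares. Rows naming no gene held 0.197% and 0.212% of estimated counts and were left out.

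The M4 tables held 9576557 and 8937887 counts. With 1 library a side the quasi-likelihood test of edgeR cannot estimate a spread, so rounded estimated counts with a sum of at least 10 were compared by a two-sided exact binomial test on TMM-scaled totals (log2 ratios with a prior count of 0.5, threshold 0.05). The binomial test was also run on simulated counts that carried counting error only. Such a run cannot show how the test behaves when libraries differ by more than counting error. Levels used log2(TPM + 1). Alternatives were other scalings, DESeq2 size factors, no filter, edgeR's exact test, M4 counts, FPKM, posterior mean TPM, other minimums and pseudocounts, and each library alone. Tools were Python 3.11.15, scipy 1.17.1, pandas 2.3.3, biopython 1.88, R 4.3.3, edgeR 4.0.16 and DESeq2 1.42.0.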

Additional observations from a re-analysis of the deposited data

How the results depend on the processing

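With 1 group and 2 libraries, the precision is that of technical replicates, and Syk, Tec and their transcripts rest on the fewest counts. No paired analysis was possible because there is only 1 group. The library comparison could not be run without a library. All 42 genes were detected under every setting run except at a minimum of 5 TPM, where Syk dropped out and 41 remained. The median log2 level of 7.35 was 6.67 by FPKM and 7.26 by posterior mean TPM, and 7.30 to 7.34 with 1 library left out. The 8 genes called higher in library 2 became 0 by edgeR's exact test and 3 by M4 counts, and the 13 called higher in library 1 became 0 and 4. Library totals and DESeq2 size factors kept all 21 calls, and with no filter on low counts Lat was lost, leaving 12 higher in library 1. By M4 counts the log2 ratio reversed for Lck (0.084), Lat (0.076), Ptpn6 (0.045), Rasgrp1 (0.027) and Vav1 (0.024). The mean log2 ratio reversed for Nck1 over Nck2 by estimated counts (-0.023) and for Dgka over Dgkz by M4 counts per kilobase (-0.012). The causes were not tested. The 8 pairs at least 2-fold apart were 8 or 9 with 1 library left out, and the 37 genes with a coding leader were 36 or 37.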

Other observations

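RefSeq promoter windows of 250 bases on GRCm38.p6 matched 34 of the 42 genes, with 52 windows in all. Their median GC content was 57.4%, beside 52.4% over 32851 windows of all genes, and the median number of CpG sites was 6 in both sets. The letters GGAAGT stood in 30.8% of the 52 windows and 19.7% of all windows, CAGGTG in 26.9% and 17.2%, TGTGGT in 17.3% and 14.1%, and TATAAA in 7.69% and 12.4%, on either strand. Windows of 1 gene can share bases, so these shares are descriptions.

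Of the 40 other pathway genes, 39 were tested between libraries, and in the exact binomial test with Benjamini-Hochberg adjustment 18 were called higher in library 1 and 6 higher in library 2, beside 36.5% of all genes called in either direction. Here too genes of unlike counts are compared. The transcripts of S100a8, a myeloid gene, were listed at 0 in library 1, with 32 estimated counts (3.57 TPM) in library 2. Other myeloid markers went the other way, such as Csf1r at 4.34 and 1.91 TPM and Adgre1 at 0.95 and 0.27 TPM. Of the 10 myeloid markers, 1 was called higher in library 2 and 2 higher in library 1, and their sum was 34.6 and 29.6 TPM.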
